A study of Mus musculus with 9 samples.

Results

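Livers of male C57BL/6 mice were compared at the end of 8 weeks of intraperitoneal thioacetamide (TAA group, 3 mice) and 8 weeks after the same course had stopped (recovery group, 3 mice), by mRNA sequencing of whole liver. All 6 of these mice had received TAA, and 3 mice given normal saline intraperitoneally for 8 weeks (control group) were the reference for what a resolved level is, so that 6 of 9 libraries make up the comparison described here. The genes were all those in the deposited FPKM table (fragments per kilobase of transcript, relative to all mapped fragments) whose mean over the 9 libraries was at least 0.1, which held for 14094 of 21873 genes. Recovery mice were 8 weeks older than the other mice at collection and had no age-matched control, so that recovery and age cannot be told apart in any value below. The hour of collection is not given in the sources used here, so a difference in hour between groups cannot be told apart from recovery either. Apart from the titles, which number the mice, nothing in the labels says how the samples of a group were kept separate, and p-values measure the spread between these samples.

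Thioacetamide is converted by hepatocytes around the central vein into reactive products that kill them. Repeated injury keeps the surviving hepatocytes and bile duct cells dividing, turns hepatic stellate cells into matrix-secreting myofibroblasts, draws in monocytes and neutrophils, and lowers the expression of genes that make a hepatocyte a hepatocyte, among them the metabolic enzymes, the secreted plasma proteins and, in male mice, the genes that depend on pulsatile growth hormone. Once injections end, myofibroblasts are lost or become quiescent and scar is degraded, which is why the model is used to study fibrosis that reverses by itself.

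Genes above 0 numbered between 14923 and 16562 per library, and depth, estimated from the steps between low values, was 26.9 M to 40.6 M fragments. The deposited values were divided by 1 factor per library, which was 1.29 to 1.38 in TAA mice and 0.893 to 0.907 in recovery mice, and levels are given below as scaled FPKM. Hepatocyte identity of the tissue was plain in every library, since 8 hepatocyte markers including Alb and Ttr summed to 25793 to 33557 scaled FPKM in TAA mice, 40684 to 44866 in control mice and 50240 to 52508 in recovery mice. TAA mouse 3 held skeletal muscle RNA: all 20 muscle genes in the table were highest in that library, where they summed to 65.5 scaled FPKM against 0.172 to 0.693 in the other libraries, and Acta1 and Myh2 were at 0 in every control and recovery mouse. No muscle gene was called different, and leaving TAA mouse 3 out gave 2912 called genes in place of 3017. Recovery mouse 3 was alone in listing Cyp11a1, a marker of the adrenal cortex, at a level of 0.618. The part of this RNA in other results was not tested.

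The livers of recovery mice differed from those of TAA mice in 3017 genes, counted as differentially expressed genes (DEGs) at an adjusted p under 0.05 and a fold change of at least 2 in limma. Recovery mice had 1003 of these higher and 2014 lower, which is 21.4% of all tested genes, 7.12% higher and 14.3% lower. The values of the 3 recovery and the 3 TAA mice did not overlap for 2999 of these DEGs, and did not overlap for 60.3% of all tested genes. The fold change was at least 4 for 754 DEGs and at least 8 for 193, of which 60 rose and 133 fell. By the same criteria 140 genes, or 0.993% of those tested, still differed between recovery and control mice, with 82 higher (0.582%) and 58 lower (0.412%), while 3520 (25%) differed between TAA and control mice, with 2389 higher (17%) and 1131 lower (8.02%). The count against control was unstable when a mouse was left out. It was 51, 36, 32 and 39 without control mouse 2, control mouse 3, recovery mouse 2 and recovery mouse 3. Without control mouse 1 and recovery mouse 1 it was 103 and 106. Whether this came from the mouse left out or from the smaller group was not tested. Each call against control below carries that limit. The 3 comparisons share mice, so their values are set side by side below and are not independent of each other. The split between rises and falls depended on the scaling: with FPKM as deposited, 409 genes were higher and 3728 lower and the median of all genes shifted by -0.55 on the log2 scale, and with quantile normalization 1198 were higher and 1379 lower.

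**Figure D1:**
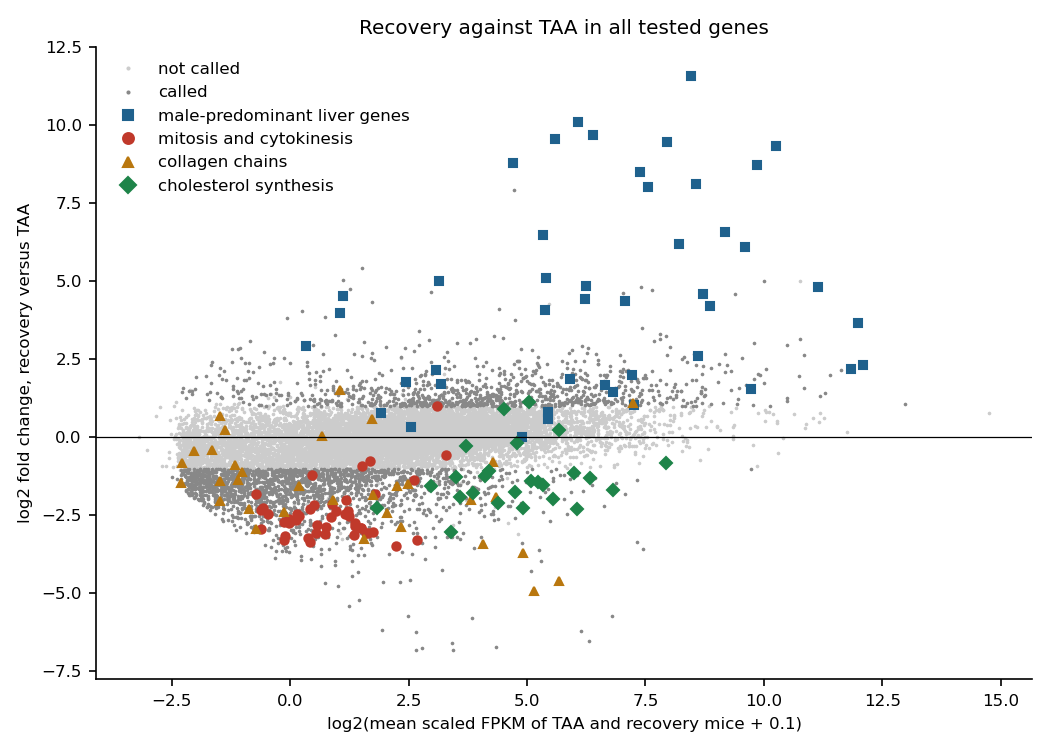
Log2 fold change of recovery versus TAA (y axis) against the log2 of the mean scaled FPKM of the TAA and recovery mice plus 0.1 (x axis) for the 14094 tested genes, with the members of 4 gene lists marked. Called genes are at an adjusted p under 0.05 and a fold change of at least 2; 40 of 45 male-predominant genes are called above 0, and 41 of 45 mitotic genes, 22 of 33 collagen chains and 19 of 25 cholesterol genes are called below it.

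Genes were grouped into lists of cell types, pathways and complexes, and each list is described by how many of its tested members were called and by its median log2 fold change, beside a median of -0.01 over all tested genes. The shares over all tested genes, 7.12% higher and 14.3% lower, are the background for each such count. The lists with the largest share lower in recovery were mitosis, neutrophils, cholesterol synthesis, DNA replication and biliary cells. Male-predominant liver genes, amino acid degradation, fatty acid oxidation and complement and coagulation factors had the largest share higher. At the other end, 0 of 17 sinusoidal endothelial genes, 1 of 31 proteasome subunits, 1 of 11 MHC class II genes and 1 of 23 lymphocyte genes were called. Over all tested genes, 21.4% were called in either direction.

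**Figure D2:**
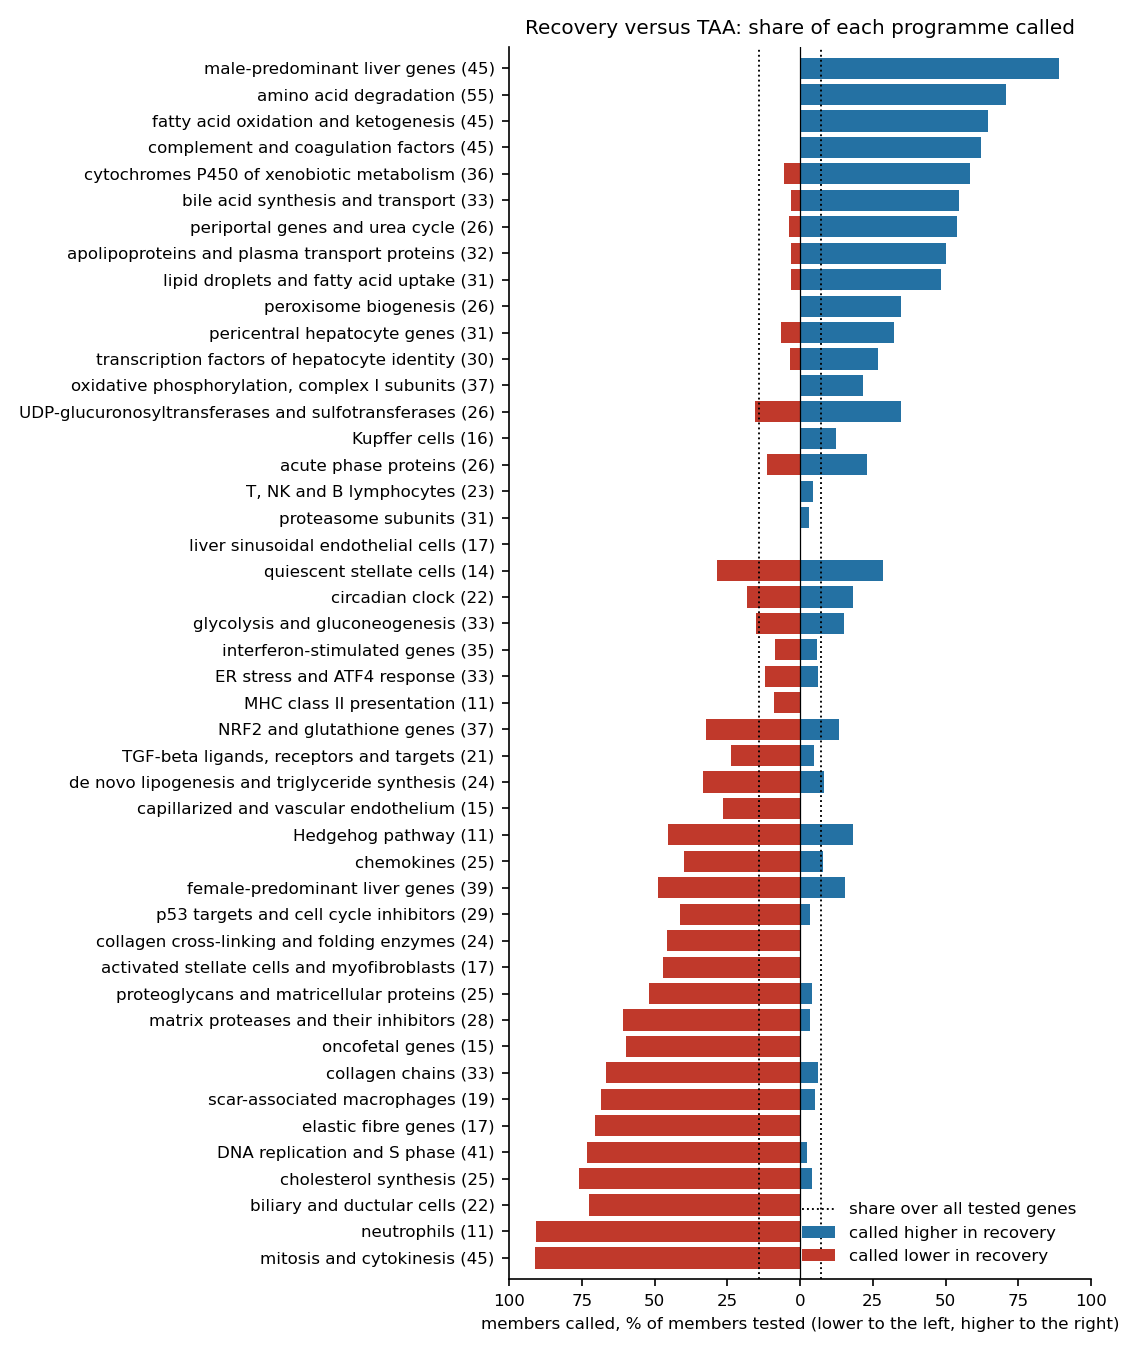
Share of the tested members of each gene list called higher (blue, to the right) or lower (red, to the left) in recovery than in TAA mice, in percent, with the number tested in brackets. Dotted lines mark the shares over all tested genes, 7.12% higher and 14.3% lower; male-predominant liver genes reach 88.9% on the right, and mitosis and cytokinesis 91.1% on the left.

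Cell division genes fell. Of 45 genes of mitosis and cytokinesis, 41 were lower in recovery than in TAA mice and 0 higher (median log2 fold change -2.61), and of 41 genes of DNA replication 30 were lower and 1 higher (median -1.67). Top2a, the topoisomerase that untangles sister chromosomes, stood at 10.7, 13 and 10.7 scaled FPKM in the TAA mice, 0.933, 1.07 and 1.22 in the recovery mice and 0.373, 0.427 and 0.3997 in the control mice. Its groups did not overlap, and all 3 recovery mice lay much nearer to control than to TAA mice (log2 fold change -3.304, SE 0.14, adjusted p = 5.65e-06, limma against TAA). Cdc20, which activates the ubiquitin ligase that starts anaphase, fell from 7.44, 10.3 and 7.93 to 0.468, 0.532 and 1.16, the largest fall of the list (log2 fold change -3.48, SE 0.2997, adjusted p = 7.72e-05, limma). Recovery mouse 3 held the highest level among recovery mice for Cdc20, and also for Mki67, the proliferation marker, which was at 0.363, 0.525 and 0.863 in recovery and 4.11, 6.33 and 4.14 in TAA mice.

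The fall was not even through the cell cycle. The mean level of the mitotic list stood 0.48, 0.52 and 1.28 log2 units above control in the 3 recovery mice, and 3.08, 3.46 and 3.03 above it in the 3 TAA mice. The replication list was below control in every recovery mouse, at -0.21, -0.204 and -0.16, having been 1.33, 1.46 and 1.45 above it in TAA mice. Among replication genes Uhrf1, which carries DNA methylation through replication, fell most (log2 fold change -4.32, SE 0.19, adjusted p = 6.46e-06, limma), and the helicase subunits Mcm2 and Mcm5 fell by 3.20 and 3.45 log2 units. Mcm10, a replication initiation factor, was the 1 member that rose, from 4.23, 4.45 and 5.51 to 15.5, 12.6 and 15.5 scaled FPKM, with control mice at 27.5, 27.5 and 28.3. The 10 replication genes that were not called had log2 fold changes between -0.95 and 0.33, with the clamp gene Pcna at -0.81, and the 4 mitotic genes not called were Aurka (-0.92), Spc24 (-0.77), Cks2 (-0.57) and Pttg1 (0.99). Against control, Top2a was the only mitotic gene called higher in recovery mice (log2 fold change 1.22, adjusted p = 0.0216 in limma), and 0 replication genes were called.

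Promoters of these genes shared letters that the lists did not use. Many genes of late cell cycle carry a cell cycle homology region, TTTGAA, close to CCAAT boxes, the site of the factor NF-Y, and replication genes carry E2F sites. RefSeq promoters (GRCm38.p6, 250 bases before the start) were matched by symbol for 10979 tested genes, among them 34 of the 41 mitotic genes that fell, with 36 promoters. CCAAT was present on either strand in 77.8% of these 36 promoters and in 35.2% of the promoters of all tested genes. TTTGAA was present in 36.1% against 11.2%, and both together in 33.3% against 4.16%. Over all tested mitotic members the shares were 76.9% for CCAAT, 33.3% for TTTGAA and 30.8% for both. TTTGAA alone was not particular to mitotic genes, being in 29.4% of male-predominant and 22.9% of female-predominant promoters. Both motifs together were in 2.94% and 2.86% of these. CCAAT was also in 55.2% of the promoters of replication genes that fell. Of 29 promoters of replication genes that fell, 24.1% held an E2F motif, spelled TTTCCCGC or TTCCCGCC, against 3.93% over tested genes, whereas none of the 36 mitotic promoters held it. The motifs are letter matches on either strand in a fixed window, and no test was made of them. The 150 bases before the start of 4 of the mitotic genes that hold both motifs are shown, on the gene's strand, with TTTGAA or its complement and CCAAT or its complement in capitals, at chr4:118437344-118437493 (minus strand) for Cdc20, chr10:69352913-69353062 (minus strand) for Cdk1, chr11:99024190-99024339 (minus strand) for Top2a and chr2:164769779-164769928 (plus strand) for Ube2c, which encode the anaphase activator, the mitotic kinase, the topoisomerase and a ubiquitin-conjugating enzyme.
Cdc20: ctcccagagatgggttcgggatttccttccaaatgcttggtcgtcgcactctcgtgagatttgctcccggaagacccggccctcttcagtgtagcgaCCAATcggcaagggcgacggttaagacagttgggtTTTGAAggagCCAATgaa
Cdk1: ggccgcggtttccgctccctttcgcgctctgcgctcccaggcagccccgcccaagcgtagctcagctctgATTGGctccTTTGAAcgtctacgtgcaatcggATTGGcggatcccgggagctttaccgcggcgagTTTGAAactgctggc
Top2a: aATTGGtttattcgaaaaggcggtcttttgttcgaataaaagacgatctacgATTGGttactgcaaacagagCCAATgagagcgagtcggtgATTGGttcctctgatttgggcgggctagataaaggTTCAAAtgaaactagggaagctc
Ube2c: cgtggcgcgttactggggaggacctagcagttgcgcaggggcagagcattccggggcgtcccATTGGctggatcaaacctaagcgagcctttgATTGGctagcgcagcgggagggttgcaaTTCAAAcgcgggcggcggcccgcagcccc

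Cdk1 and Ube2c, beside the Cdc20 and Top2a values above, both fell: Cdk1 was at 3.85, 4.44 and 3.05 in TAA and 1.06, 0.392 and 0.611 in recovery mice (log2 fold change -2.37, SE 0.31, adjusted p = 0.000515, limma), and Ube2c at 3.67, 5.51 and 3.63 in TAA and 0.251, 0.315 and 1.42 in recovery mice (log2 fold change -2.83, SE 0.52, adjusted p = 0.00275, limma). Recovery and TAA mice did not overlap for any of the 4 genes.

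Genes of the p53 response split. Of 29 targets of p53 and cell cycle inhibitors, 12 fell and 1 rose, with a median of -0.58. Eda2r, a receptor of the tumour necrosis factor receptor family and a p53 target, stood at 8.65, 10.6 and 9.18 in TAA mice and 0.31, 0.157 and 0.441 in recovery mice, near the control mice at 0.244, 0.266 and 0.115 (log2 fold change -4.63, SE 0.26, adjusted p = 1.42e-05, limma). Ccng1, cyclin G1, another p53 target, was at 10.1, 10.04 and 10.1 in recovery mice and 11.4, 10.7 and 10.9 in control mice after 40.3, 44.4 and 39.2 in TAA mice. Cdkn1a, the p21 inhibitor of cyclin-dependent kinases, behaved otherwise. It fell only from 27.2, 34.4 and 37.8 to 9.47, 16.8 and 20.3 scaled FPKM, and the control mice were at 0.87, 1.04 and 0.969, so that every recovery mouse was far above every control mouse. Its log2 fold change was -1.15 (SE 0.27, adjusted p = 0.00856, limma) against TAA and 3.81 (adjusted p = 0.00776) against control. Cdkn2c, another inhibitor of this class, did not pass the threshold against TAA (-0.498) and was also higher in recovery than in control mice (1.27, adjusted p = 0.0208).

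Genes of every matrix list fell, in different shares. Among collagen chains 22 of 33 were lower and 2 higher in recovery mice, with a median of -1.54. Col1a1, the main fibrillar chain of scar, was at 77.2, 49.3 and 78.2 scaled FPKM in TAA mice, 1.16, 2.2 and 3.6 in recovery mice and 1.04, 1.01 and 0.995 in control mice (log2 fold change -4.92, SE 0.37, adjusted p = 4.22e-05, limma against TAA). All 3 recovery mice were above all 3 control mice, but this remaining difference of 0.99 log2 units did not pass (adjusted p = 0.179, limma). Col3a1 fell by 4.61 log2 units, Col1a2 by 3.69, Col6a3 by 3.43 and the basement membrane chain Col4a1 by 1.92. The 2 chains that rose were Col18a1, from which endostatin is cut, from 104, 86.3 and 92.4 to 225, 215 and 175, and Col5a3, from 1.08, 0.739 and 1.12 to 3.27, 2.96 and 2.6. Col18a1 was then back near control mice, whose values were 208, 208 and 209.

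Enzymes that cross-link and fold collagen followed, with 11 of 24 lower, 0 higher and a median of -0.86. The lysyl oxidases, which cross-link collagen and elastin, fell in the order Lox (-2.91), Loxl2 (-2.75) and Loxl1 (-2.48), and Loxl3 had a log2 fold change of -0.93 without reaching a fold change of 2. Lox was at 2.58, 2.72 and 2.37 in TAA mice and 0.152, 0.326 and 0.309 in recovery mice. Elastic fibre genes had 12 of 17 members lower and a median of -1.59. Eln, elastin itself, fell from 13.9, 6.78 and 12.3 to 0.966, 1.54 and 1.54 (log2 fold change -2.899, SE 0.29, adjusted p = 0.000155, limma), with control mice at 0.39, 0.639 and 0.422, so that elastin in every recovery mouse was above every control mouse, a difference of 1.31 log2 units that just missed the threshold (adjusted p = 0.0523, limma). Fbn2, a fibrillin of developing elastic fibres, fell by 3.75. Among proteoglycans and matricellular proteins 13 of 25 were lower and 1 higher, led by Spp1, osteopontin, which went from 415, 284 and 274 to 23.6, 24.7 and 31.7.

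Among matrix proteases and their inhibitors 17 of 28 fell and 1 rose, and 2 were still higher than in control mice. Mmp7, matrilysin, an epithelial protease, was at 31.9, 25.4 and 22.8 in TAA mice and 1.24, 3.33 and 2.54 in recovery mice, against 0.0233, 0.0427 and 0.254 in control mice. Recovery lay between the other groups without overlap with either, with log2 fold changes of -3.53 (SE 0.32, adjusted p = 9.44e-05, limma) against TAA and 3.64 (adjusted p = 0.0249) against control. Plat, tissue plasminogen activator, was the other (-3.67 against TAA and 1.31 against control). Timp1, which inhibits these proteases, fell from 1.29, 1.74 and 2.08 to 0, 0.219 and 0.116, and the collagenase Mmp13 from 0.288, 0.94 and 0.457 to 0.03005, 0.165 and 0.041. Mmp14, which activates Mmp2 at the cell surface, was not called, at 19.9, 15.9 and 19.2 in TAA and 23.4, 22.3 and 23 in recovery mice. Mmp11, stromelysin 3, was the 1 that rose, from 9.55, 7.56 and 11.2 to 33.7, 25 and 19.8, but control mice ranged from 0.237 to 29.2, so no control level can be set for it.

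Among markers of activated stellate cells and myofibroblasts 8 of 17 fell and 0 rose, with a median of -0.90. In whole liver, fewer cells of a type and less RNA per cell cannot be told apart, which holds for every cell type named here. Acta2, smooth muscle actin, the usual marker of myofibroblasts, was at 4.44, 3.87 and 7.19 in TAA and 0.493, 0.845 and 2.04 in recovery mice, with control mice at 1.73, 1.04 and 0.615 (log2 fold change -2.26, SE 0.45, adjusted p = 0.00414, limma). Recovery mice spread widely in this list, at -0.35, 0.21 and 0.601 log2 units relative to control. The platelet-derived growth factor receptor Pdgfrb fell by 1.53, while Pdgfra (-0.78) and desmin, Des (-0.905), did not reach a fold change of 2. Quiescent stellate genes went both ways, 4 higher and 4 lower of 14: Lrat, which stores retinol as esters, fell from 18.2, 10.3 and 18.2 to 3.98, 4.86 and 4.01, and Ecm1, which keeps TGF-beta latent, rose from 11.7, 10.8 and 15.1 to 31.9, 34.3 and 25.3. Of 21 ligands, receptors and targets of TGF-beta 5 fell and 1 rose. These shares were 23.8% and 4.76%, against 14.3% and 7.12% of all tested genes. The ligands Tgfb2 (-1.51) and Tgfb3 (-2.005) fell, and Tgfb1 was not called, at 6.97, 5.78 and 7.22 in TAA mice, 4.67, 4.85 and 5.37 in recovery mice and 3.52, 3.72 and 3.82 in control mice. In the Hedgehog pathway 5 of 11 fell and 2 rose. The median of this list, -0.80, became -0.24 with quantile normalization and -0.32 with a pseudocount of 1. Gli3, a transcription factor of the pathway, fell (-1.01), and the pathway's receptor Ptch1 was not called (0.12).

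Biliary and ductular genes fell in 16 of 22 cases with 0 rises, at a median of -2.39. Cldn4, a tight junction protein of duct epithelium, was at 5.33, 8.94 and 7.91 in TAA mice and 0.106, 0.343 and 0.181 in recovery mice (log2 fold change -4.64, SE 0.31, adjusted p = 2.62e-05, limma). Prom1, a marker of progenitor-like duct cells, fell by 3.73, and the duct keratins Krt19 (-2.75) and Krt7 (-1.99) fell too. Epcam, an adhesion molecule of duct cells, was at 1.1, 1.52 and 1.48 in recovery mice, below TAA mice at 10.3, 7.65 and 7.78 and above control mice at 0.249, 0.377 and 0.499, and was still called higher than in control (1.65, adjusted p = 0.031, limma). Sox9, a transcription factor of duct cells, had a log2 fold change of -0.99, just short of a fold change of 2. As a list, biliary genes in recovery mice stood 0.58, 0.69 and 0.78 above control, which is 25% of the distance of TAA mice.

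Oncofetal genes, which the fetal liver expresses, had 9 of 15 members lower and 0 higher. Their median of -1.80 became -0.38 with a pseudocount of 1 and -3.21 with a pseudocount of 0.01. Afp, alpha-fetoprotein, was among the 10 largest falls of all genes: TAA mice were at 30.9, 52 and 38.1 scaled FPKM and recovery mice at 0.334, 0.244 and 0.25, with control mice at 0.629, 0.535 and 0.393 (log2 fold change -6.72, SE 0.201, adjusted p = 1.51e-06, limma; gene at chr5:90489535-90515724, mm10). Every recovery mouse was below every control mouse, but this difference of -0.71 log2 units did not pass (adjusted p = 0.119, limma). Gpc3, glypican 3, a cell surface proteoglycan, fell by 4.58, to 0.144, 0.267 and 0.933, where recovery mouse 3 stood apart from the others. Igf2 was not called, at 0.0789, 0.0849 and 0.848 in TAA mice and 0, 0.0766 and 0.0383 in recovery mice.

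Leukocyte genes divided by cell type. Neutrophil genes had 10 of 11 members lower and a median of -1.74, among them S100a8, a calcium-binding protein of neutrophils, at 10.3, 8.17 and 13.1 in TAA and 2.005, 3.01 and 1.34 in recovery mice. The size of this median is uncertain, since it was -0.55 with a pseudocount of 1 and -0.96 with quantile normalization. Only 11 of 15 members were high enough to be tested, and the list counts Lcn2, given below with the acute phase proteins. Genes of scar-associated macrophages had 13 of 19 lower and 1 higher. Cd63, a lysosomal membrane protein that other cells also make, fell from 67.4, 62.3 and 62.9 to 2.08, 3.58 and 4.5 (log2 fold change -4.27, SE 0.24, adjusted p = 1.46e-05, limma), and Ccr2, the monocyte chemokine receptor, from 4.12, 3.61 and 3.67 to 0.438, 0.708 and 0.755. Trem2 and Gpnmb, which mark lipid- and scar-associated macrophages, fell by 2.25 and 2.18, but control mouse 1 held 7.1 and 22.2 scaled FPKM of them against no more than 0.389 in the other control mice, so no control level can be set for either. Chemokine genes had 10 of 25 lower and 2 higher. Their median of -0.68 became -0.13 with quantile normalization and -0.18 with a pseudocount of 1. Ccl2, which attracts monocytes, fell from 1.67, 1.79 and 1.42 to 0.158, 0.324 and 0.364, and Cxcl10 fell by 1.53, while the T cell chemokine Ccl5 was not called, at 2.69, 1.4 and 1.85 in TAA and 0.45, 1.47 and 2.2 in recovery mice.

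Few antigen presentation and lymphocyte genes were called, and recovery mice spread widely in both lists. Of 11 MHC class II genes, with a median of -0.67 and 10 below 0, 9 were higher in TAA than in control mice. In recovery against TAA mice 1 was called lower, a share of 9.09% against 14.3% of all tested genes. It was Ciita, the class II transactivator, which fell from 1.64, 1.59 and 2.08 to 0.463, 0.916 and 0.831. H2-Aa was at 67.7, 41.4 and 49.9 in TAA mice, 17.7, 46.4 and 41.9 in recovery mice and 10.7, 15.2 and 16.9 in control mice. Recovery mice 2 and 3 were within the TAA range and mouse 1 was near control, and neither difference passed (log2 fold change -0.67, adjusted p = 0.153 against TAA, and 1.21, adjusted p = 0.134 against control, limma). Cd74, the invariant chain, was also lowest in mouse 1, at 31.8, 62.1 and 62.3 in recovery. Over the whole list recovery mice were 0.14, 1.099 and 0.96 log2 units above control, and 55.6% of the TAA difference was left. Genes of T, NK and B lymphocytes likewise put recovery mouse 1 apart, at -0.35, 0.54 and 0.64, and Gzmb, a granule protease of cytotoxic cells, was the 1 of 23 called, higher in recovery mice at 0.446, 0.347 and 0.424 against 0.143, 0.185 and 0.0248, and without TAA mouse 3 this list had 0 calls.

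Kupffer cell genes, the resident macrophage set, had 2 of 16 members higher and 0 lower. The 16 include Cdh5, which the list of capillarized and vascular endothelium also counts. Cd163, a haemoglobin scavenger receptor, rose from 1.79, 2.79 and 2.03 to 3.56, 6.3 and 8.73 and Timd4, a receptor of long-resident Kupffer cells, from 2.02, 1.71 and 0.827 to 2.05, 3.74 and 5.47 (adjusted p = 0.00764 and 0.0357, limma). Without TAA mouse 3, 1 of these 2 calls was left. Clec4f, which only Kupffer cells express in liver, was 21.4, 23.9 and 20.2 in TAA and 39, 35.2 and 36.8 in recovery mice, without overlap but short of a fold change of 2 (0.76). Control mouse 1 was low for this list, for instance at 13.8 for Clec4f against 32.3 and 36.2 in the others, and no Kupffer gene was called against control. Interferon-stimulated genes had 2 of 35 higher (5.71%) and 3 lower (8.57%), below the 7.12% and 14.3% of all tested genes. Irf7, a factor of the interferon response, rose from 4.98, 5.66 and 6.44 to 15.5, 14.2 and 10.1. Oasl1 fell from 4.43, 8.28 and 8.42 to 2.34, 2.65 and 3.05. None of 17 sinusoidal endothelial genes was called in limma, with log2 fold changes from -0.47 to 0.91, and the scavenger receptor Stab2 was at 10.6, 8.999 and 9.71 in TAA and 13.4, 13 and 13.3 in recovery mice. Of 15 genes of capillarized and vascular endothelium 4 fell, although the list's median was positive (0.16) where its mean level was lower in recovery, with Cd34, an endothelial glycoprotein, going from 10.1, 6.55 and 8.47 to 0.969, 1.72 and 1.43, still above control mice at 0.519, 0.559 and 0.712 without passing the test (adjusted p = 0.0702, limma).

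The largest rises of all genes were in the male-predominant programme. Of 45 such genes 40 rose and 0 fell (median log2 fold change 4.36), and 9 of the 10 largest rises were major urinary protein genes (Mup), which encode pheromone carriers secreted by male liver. Mup15 was listed at 0.183, 0.171 and 0 scaled FPKM in TAA mice and 599, 315 and 1193 in recovery mice, with 2306, 3442 and 2753 in control mice, at chr4:61435790-61439743 (mm10). Its fitted log2 fold change of 11.59 rests on TAA values at or near 0 and so on the pseudocount of 0.1. Mup17 spread widely among recovery mice, at 185, 110.2 and 1189 against 0.108, 0.593 and 0.377 in TAA and 3171, 4585 and 3575 in control mice, and recovery mouse 3 was the highest of the recovery mice for Mup15, Mup17, Mup19 and Mup7. The fatty acid elongase Elovl3 rose from 0.0924, 0.0986 and 0.104 to 145, 138 and 219, above control at 55.3, 81.7 and 68.9 in every recovery mouse, and was the 1 male-predominant gene called higher than control (1.27, adjusted p = 0.0398, limma).

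Return within the male programme was uneven. Mup3, at 600.4, 499 and 674 in TAA mice, was at 7668, 7459 and 7396 in recovery mice and 6839, 8575 and 8769 in control mice, a difference from control of -0.09 log2 units, and Mup21 differed from control by -0.02 and Mup20, darcin, by 0.1003. Mup19, Mup12 and Mup13 were still called lower than control, by 2.39, 2.06 and 1.04 log2 units. Hsd3b5, a male steroid dehydrogenase, rose from 0.075, 0.0379 and 0.094 to 5.53, 2.16 and 4.51 but was below control mice at 15.5, 16.7 and 15 (-2.03, adjusted p = 0.0345). Susd4 was the other male gene still called lower (-2.69). Of 45 members 33 lay below control, of which 5 were called, and the furthest was at -5.19 log2 units. Cyp4a12a, a fatty acid hydroxylase, at 165, 132 and 142, and Cyp2d9 and C6, a complement component, were within 0.10 log2 units of control. In the list mean, recovery mice stood at -0.68, -1.01 and -0.36 and TAA mice at -5.19, -5.63 and -5.16 log2 units relative to control. The growth hormone receptor gene Ghr rose from 51.5, 49.1 and 44.9 to 103, 97.5 and 98.4 and its target Igf1 from 67.1, 59.99 and 52.6 to 147, 151 and 167.

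Mup genes are near copies of each other, so reads can be shared between them and the level of any single gene is uncertain. Transcripts of Mup17, Mup12, Mup2, Mup19 and Mup15 were 98.6% to 99.2% identical to that of Mup7 over the aligned bases, and those of Mup3, Mup20 and Mup21 were 84.3%, 90.6% and 86.8% identical to it. Mup3, Mup20 and Mup21, which were near control, are thus the less alike copies. Promoters of a returned and of a lagging pair, chosen after their values were seen, are shown as the 150 bases before the RefSeq start on the gene's strand (GRCm38.p6), at chr4:62087318-62087467 (minus strand), chr4:62150842-62150991 (minus strand), chr4:61595833-61595982 (minus strand) and chr4:61782225-61782374 (minus strand). Capitals mark bases that differ within a pair or have no partner in its alignment. Mup3 and Mup21 shared 135 of 144 aligned bases, Mup17 and Mup19 shared 143 of 143, and Mup3 and Mup19, across the pairs, shared 87 of 98.
Mup3: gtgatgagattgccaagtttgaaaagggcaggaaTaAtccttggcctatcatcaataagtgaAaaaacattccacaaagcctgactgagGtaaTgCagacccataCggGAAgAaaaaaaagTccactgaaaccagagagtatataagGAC
Mup21: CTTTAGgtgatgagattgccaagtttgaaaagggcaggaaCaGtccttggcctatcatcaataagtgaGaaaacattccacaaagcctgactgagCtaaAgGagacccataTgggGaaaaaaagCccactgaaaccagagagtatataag
Mup17: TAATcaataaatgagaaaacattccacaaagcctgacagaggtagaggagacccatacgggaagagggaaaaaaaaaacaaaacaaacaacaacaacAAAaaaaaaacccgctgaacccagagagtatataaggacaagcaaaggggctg
Mup19: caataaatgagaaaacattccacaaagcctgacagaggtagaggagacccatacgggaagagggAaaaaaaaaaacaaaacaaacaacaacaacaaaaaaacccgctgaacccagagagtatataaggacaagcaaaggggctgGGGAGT

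Female-predominant genes went mostly the other way, with 19 of 39 lower and 6 higher in recovery mice. Cyp3a41a, Cyp3a41b, Cyp3a16 and Cyp2a4, cytochromes P450 that male liver hardly expresses, were all among the 10 largest falls. Cyp3a41a went from 14.9, 13.8 and 12.1 to 0.0195, 0.0423 and 0.0198, and Cyp3a16, at 6.74, 10.2 and 5.27 in TAA mice, was listed at 0 in every recovery and every control mouse. Transcripts of Cyp3a41a and Cyp3a41b were 99.9% identical and cannot be read as separate genes. The 6 that rose were Cyp4a14, Cyp4a10, Acot3, Cyp17a1, Cyp2c69 and Sult2a7. The first 3 encode lipid enzymes that the nuclear receptor PPAR-alpha induces in either sex, and Cyp4a14 rose from 45.2, 104 and 49.9 to 1731, 2081 and 2163. Cyp2b10, a target of the receptor CAR, was the 1 gene of the list still called against control, at 0.914, 3.08 and 1.21 in recovery, 3.05, 10.3 and 2.61 in TAA and 0.233, 0.136 and 0.215 in control mice.

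A pair of closely alike P450 genes on chromosome 7 differed sharply. Cyp2a4, a steroid hydroxylase, was at 144, 183 and 144 in TAA mice and 1.89, 1.17 and 1.83 in recovery mice, where control mice had 1.83, 1.77 and 1.04 (log2 fold change -6.52, SE 0.19, adjusted p = 1.49e-06, limma). Cyp2a5, a coumarin hydroxylase, was at 279, 348 and 286 in TAA and 372, 249 and 319.9 in recovery mice, overlapping groups with a log2 fold change of 0.03, which quantile normalization moved to -1.07. Their transcripts were 98.3% identical over the aligned bases, so part of the reads of either may be counted on the other. Their promoters, at chr7:26307042-26307191 (plus strand) and chr7:26835189-26835338 (plus strand) in GRCm38.p6, shared 146 of 149 aligned bases, with the differing and unpaired bases in capitals.
Cyp2a4: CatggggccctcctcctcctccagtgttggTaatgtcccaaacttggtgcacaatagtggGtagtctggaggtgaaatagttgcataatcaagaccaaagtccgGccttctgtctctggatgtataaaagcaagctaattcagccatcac
Cyp2a5: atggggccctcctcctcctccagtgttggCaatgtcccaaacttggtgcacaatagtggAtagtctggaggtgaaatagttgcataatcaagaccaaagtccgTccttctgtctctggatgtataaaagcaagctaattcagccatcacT

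Hepatocyte metabolism rose. Of 45 genes of fatty acid oxidation and ketogenesis 29 were higher and 0 lower, with a median of 1.34 (0.73 with quantile normalization), and of 55 genes of amino acid degradation 39 were higher and 0 lower. Cpt1a, which admits fatty acids to mitochondria, stood at 99, 81.4 and 99.1 in TAA mice, 222, 254 and 231 in recovery mice and 306, 295 and 308 in control mice (log2 fold change 1.34, SE 0.11, adjusted p = 6.39e-05, limma against TAA). Mat1a, which makes S-adenosylmethionine, rose from 390.1, 276 and 311 to 1933, 3178 and 2576, and the tryptophan dioxygenase Tdo2 from 166, 141 and 121 to 641, 624 and 826. Peroxisome biogenesis had 9 of 26 higher and 0 lower, led by Pex11a (2.45), and complex I of the respiratory chain had 8 of 37 higher and 0 lower. The list means of complex I in recovery mice were 0.18, 0.27 and 0.13 log2 units above control, with 0 genes called.

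Genes of the lobule's zones returned to different extents. Around the central vein, where TAA is activated, 10 of 31 genes rose and 2 fell. Glul, glutamine synthetase, confined to the innermost hepatocytes, was at 50.3, 40.9 and 49.2 in TAA mice, 439, 405 and 478 in recovery mice and 484, 514 and 456 in control mice (log2 fold change 3.23, SE 0.11, adjusted p = 3.67e-06, limma against TAA). Cyp2e1, the main enzyme that activates TAA, rose from 398, 309 and 348 to 3041, 3031 and 3317, against 4745, 4326 and 4157 in control mice, every recovery mouse still lower without passing the test (-0.49, adjusted p = 0.118, limma). Slc1a2, the glutamate transporter of the same cells, rose from 0.0481, 0.105 and 0.243 to 50.1, 54.1 and 53.6. Oat, ornithine aminotransferase, rose from 10.04, 18.4 and 15.2 to 308, 378 and 464 and was still below control at 1129, 1178 and 808 (-1.44, adjusted p = 0.027). Axin2 and Lgr5, targets of the Wnt signal that sets this zone, were not called, at log2 fold changes of 0.03 and 0.696. Periportal and urea cycle genes had 14 of 26 higher and 1 lower: Hal, histidine ammonia-lyase, rose by 2.45, Arg1, arginase, by 1.597 and Otc, ornithine transcarbamylase, by 1.63, while Cps1 (0.87) and Ass1 (0.803) did not reach a fold change of 2. The median of this list, 1.13, became 0.29 with quantile normalization. Cdh1, E-cadherin, was the 1 that fell, from 32.3, 29.6 and 28 to 10.3, 9.3 and 10.4, and it was still higher than control at 4.5, 4.66 and 4.96 (1.07, adjusted p = 0.00902).

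Regulators of hepatocyte identity had 8 of 30 members higher and 1 lower, with a median of 0.63 that became 0.36 with quantile normalization. Hnf4a rose from 105, 101 and 90.2 to 258, 185 and 186, Nr1h4, the bile acid receptor FXR, by 1.02, and Nr1i3, the receptor CAR, by 2.03, while Cebpa (0.98) and Ppara (0.904) stayed just under a fold change of 2. Drug-metabolizing P450 genes had 21 of 36 higher and 2 lower, with Cyp2c37 at 16, 17.3 and 12.9 in TAA and 92.9, 128 and 101 in recovery mice. Cyp1a1, which aryl hydrocarbon receptor ligands induce, fell from 15.7, 41.7 and 26.5 to 0.426, 0.311 and 0.367 (log2 fold change -5.802, SE 0.32, adjusted p = 1.26e-05, limma), and its relative Cyp1a2 was not called (0.67). In bile acid synthesis and transport 18 of 33 rose and 1 fell. Cyp8b1, which makes cholic acid, rose from 28.2, 3.96 and 12.6 to 279.9, 289 and 400.1, the uptake transporter gene Slc10a1 rose by 2.44, Abcc4, an efflux pump of the sinusoidal membrane, fell by 1.93, and neither Cyp7a1, the rate-limiting enzyme of bile acid synthesis (0.703), nor the export pump Abcb11 (-0.01) was called. UDP-glucuronosyltransferases and sulfotransferases, the conjugating enzymes, had 9 of 26 higher and 4 lower, with Ugt3a1 rising by 4.11. Their median of 0.68 became 0.22 with quantile normalization.

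Among secreted plasma proteins, complement and coagulation factors had 28 of 45 higher and 0 lower, and apolipoproteins and plasma transport proteins 16 of 32 higher and 1 lower. Their medians of 1.12 and 0.96 became 0.43 and 0.05 with quantile normalization. F2, prothrombin, was at 253, 198 and 215 in TAA, 644, 584 and 559.6 in recovery and 609.6, 615 and 609.7 in control mice, and C8b, of the membrane attack complex, rose by 2.2005. Apoa1, the main protein of high-density lipoprotein, rose from 1304, 1109 and 1066 to 4481, 5641 and 5315, above every control mouse (2996, 3590.1 and 3572) but not called against control. Alb, albumin, was not called, at 23279.8, 20731 and 17378 in TAA and 33874, 34881 and 36663 in recovery mice. The 1 that fell was Serpina7, which carries thyroid hormone, from 37.7, 45.4 and 36.5 to 9.88, 8.06 and 7.79. Acute phase proteins had 6 of 26 higher and 3 lower: Lbp, which binds lipopolysaccharide, rose by 2.44, Lcn2, lipocalin 2, fell by 2.58, and the iron hormone gene Hamp was not called (-0.23). The median of this list was 0.61 and turned to -0.09 with quantile normalization.

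Cholesterol synthesis went past control. Of 25 genes 19 were lower and 1 higher in recovery than in TAA mice, with a median of -1.42, and 6 were also called lower than in control mice against 0.412% of all tested genes. Msmo1, a sterol demethylating oxidase, was at 69, 63.7 and 48 in TAA mice, 17.7, 22 and 22.9 in recovery mice and 74.1, 48.2 and 52.3 in control mice. TAA and control mice overlapped, and every recovery mouse was below both. Its log2 fold change was -1.52 (SE 0.16, adjusted p = 0.00019, limma) against TAA and -1.46 (adjusted p = 0.0193) against control. Also below control were Mvd (-1.03), Stard4 (-1.49) and Insig1 (-1.17). Insig2, which like Insig1 retains the sterol sensor SCAP in the endoplasmic reticulum and was picked out after its values were seen, rose from 41.9, 52.5 and 33.3 to 287, 383 and 425 and was above control at 88.9, 135 and 106. Srebf2, the transcription factor of the pathway, was not called, at 15.9, 13.2 and 13.4 in TAA and 12, 11 and 12.1 in recovery mice. In the list mean, recovery mice were at -0.54, -0.61 and -0.45 and TAA mice at 1.01, 0.75 and 0.46 log2 units relative to control.

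Lipogenesis fell less widely, with 8 of 24 lower and 2 higher. Fasn, fatty acid synthase, went from 79.9, 52 and 47.7 to 22.5, 20.004 and 16 and Thrsp, which stimulates it, fell by 2.69 log2 units, while Scd1, the desaturase, was not called, at 1879, 1431 and 1116 in TAA and 1246, 1180.5 and 716 in recovery mice. Pnpla3, a lipid droplet acyltransferase and lipase, fell by 4.76. Lipid droplet and fatty acid uptake genes moved the opposite way, 15 of 31 higher and 1 lower: Plin2, a droplet coat protein, rose from 229, 258 and 231 to 610.4, 530.1 and 683, above every control mouse at 287, 386 and 299.9, and Plin4 rose by 2.88. Fitm1, which promotes droplet formation, rose from 0.537, 0.26 and 0.867 to 4.57, 3.46 and 7.48 and was still below control at 34.5, 20.7 and 17.2 (-2.21, adjusted p = 0.0337, limma). Glycolysis and gluconeogenesis had 5 of 33 higher and 5 lower, 15.2% each, against 7.12% and 14.3% of all tested genes. The gluconeogenic phosphatase genes G6pc (1.89) and Fbp1 (1.84) rose, and Pkm, the pyruvate kinase of nonhepatocytes and dividing cells, fell by 2.21.

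Of 37 genes of NRF2 and glutathione metabolism, which answer oxidants, 12 fell and 5 rose. Slc7a11, the cystine importer, was at 5.68, 16.3 and 10.8 in TAA and 0.0487, 0.127 and 0.106 in recovery mice (log2 fold change -5.73, SE 0.37, adjusted p = 2.27e-05, limma), and Gsta1, a glutathione transferase, fell from 179, 276 and 193 to 3.1, 3.77 and 5.13. Gsta1 shares 99.5% of its aligned bases with Gm3776, which was among the 10 largest falls, so that the pair may be a single signal. Nqo1, a quinone reductase, fell by 1.25, and Hmox1, haem oxygenase, was not called, at 15.1, 13.6 and 13.6 in TAA and 17.4, 15.7 and 16.1 in recovery mice. The 5 that rose were Gstk1, Gstz1, Gstt2, Gstp1 and Gstp2. Genes of the ER stress and ATF4 response had 2 of 33 higher (6.06%) and 4 lower (12.1%), close to the 7.12% and 14.3% of all tested genes. Fgf21, a fasting hormone, rose from 1.001, 0.983 and 0.881 to 6.34, 12.2 and 17.6, Phgdh, of serine synthesis, fell by 3.63, and the chaperone Hspa5 was not called, at 130.4, 120.3 and 131 in TAA and 189, 121 and 129 in recovery mice.

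The largest falls outside these lists were Akr1c18, a progesterone-inactivating dehydrogenase, from 20.6, 24.8 and 18.2 to 0.0285, 0.0861 and 0.171, and Sprr1a, a cornified envelope protein of stressed epithelia, which was at 5.62, 18.7 and 12.9 in TAA mice and listed at 0 in every recovery and control mouse. Gm10639, the remaining gene of the 10, fell from 12, 29.9 and 20.8 to 0, 0 and 0.76, and its transcript was 96.9% identical to Gm3776 and 96.7% to Gsta1, so that it may share their signal. Cyp21a1, the steroid 21-hydroxylase, fell from 3.07, 4.09 and 5.99 to 0.138, 0.128 and 1.13, where recovery mouse 3, with its adrenal RNA, was the highest, and TAA mice listed the adrenal markers Cyp11a1 and Cyp11b1 at 0.

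**Figure D3:**
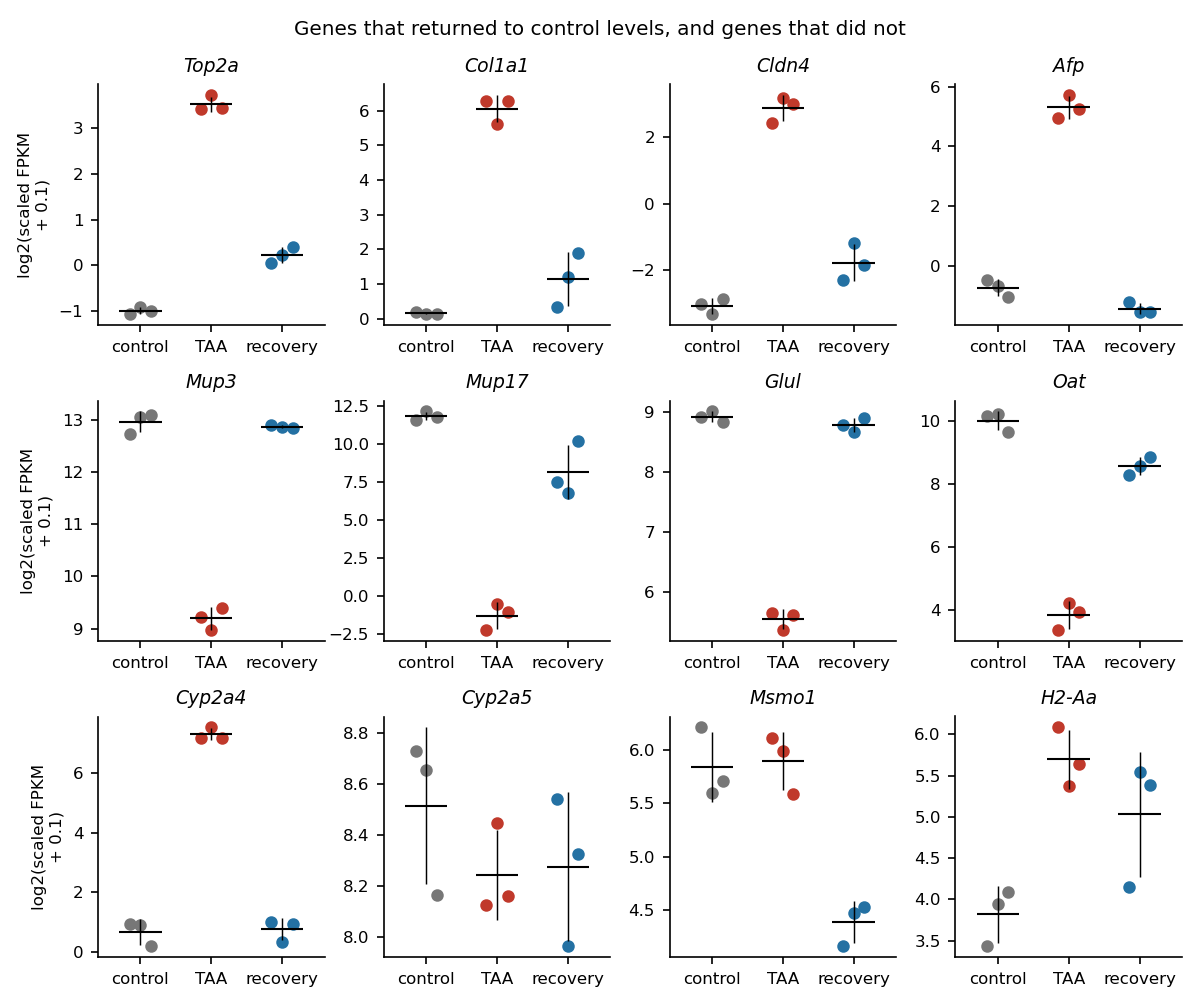
Level of 12 genes in each of the 9 mice as log2 of scaled FPKM plus 0.1 (y axis, scaled to each gene), by group; bars are the mean and vertical lines the SD of 3 mice. Top2a, Col1a1 and Cldn4 fall most of the way to control, Afp falls below it without passing the test against control, Cyp2a4 falls and Mup3 and Glul rise to near it, Mup17 and Oat stay below it, Msmo1 falls below both other groups, Cyp2a5 overlaps between groups, and in H2-Aa the recovery mice spread from control to TAA levels.

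Some genes returned to the control mean. With a rise or fall of at least 8-fold against TAA and a difference from control under 0.1 log2 units, 29 genes met the rule, 9 of them rises. The most abundant were Mup3, Mug1, a murinoglobulin protease inhibitor, Gm4737, Mup21, Cyp4a12a and Cyp2a4. Mug1 was at 208, 174 and 191 scaled FPKM in TAA mice, 1625, 1529 and 1551 in recovery mice and 1523, 1473 and 1705 in control mice, so that recovery lay within the control range in every mouse. For Gm4737 only the means were close, since recovery mice were at 449, 249 and 243 and control mice at 333, 273 and 274, with every recovery mouse outside the control range. Values near control in this set follow from the rule and are given as a description.

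Another set was still apart from control. Called in the same direction against control in TAA and in recovery mice, and not called between recovery and TAA mice, were 31 genes with a mean of at least 1 scaled FPKM in the higher group, 17 of them above control. Pdk4, the kinase that shuts pyruvate dehydrogenase, was at 19.8, 25 and 15.5 in TAA mice and 16.6, 23 and 24 in recovery mice, against 3.85, 5.42 and 2.68 in control mice, for log2 fold changes of 0.09 (SE 0.202, adjusted p = 0.747, limma) against TAA and 2.42 (adjusted p = 0.0161) against control. Tubb2a, a beta-tubulin, was at 41.4, 51.6 and 77.3 in recovery mice, with TAA mice at 67.1, 79.3 and 65.4 and control mice at 14.7, 17.8 and 9.99. St5 (1.66), Gask1a (1.66), Cyp2b10 (2.47, and -1.46 against TAA with an adjusted p of 0.0682) and Dhrs9, a retinol dehydrogenase (1.98), were also above control in recovery mice. For Dhrs9 the TAA and recovery values did not overlap and the difference of -0.86 log2 units had an adjusted p of 0.00745 in limma, short of a fold change of 2.

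The least resolved genes below control were led by Moxd1, a monooxygenase, which was at 1.71, 6.32 and 12 in control mice and at no more than 0.0242 scaled FPKM in any TAA or recovery mouse. Nxpe2 was at 0.165, 0.163 and 0.147 in TAA, 0.288, 0.214 and 0.925 in recovery and 4.79, 5.92 and 7.19 in control mice, so that recovery and TAA mice did not overlap, with a difference of 0.95 log2 units (adjusted p = 0.0975, limma). Pcsk4, a proprotein convertase, was at 5.73, 4.35 and 3.74 in recovery and 3.47, 2.57 and 3.68 in TAA mice, below 15.6, 11.5 and 17.1 in control mice. Bhlhe41, a repressor of the clock, completed the 10 (-1.67 against control). Control mice themselves differed widely in Moxd1, so its distance is imprecise. Pdk4 is counted in the fatty acid oxidation list, of which it was the 1 member higher than control.

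**Figure D4:**
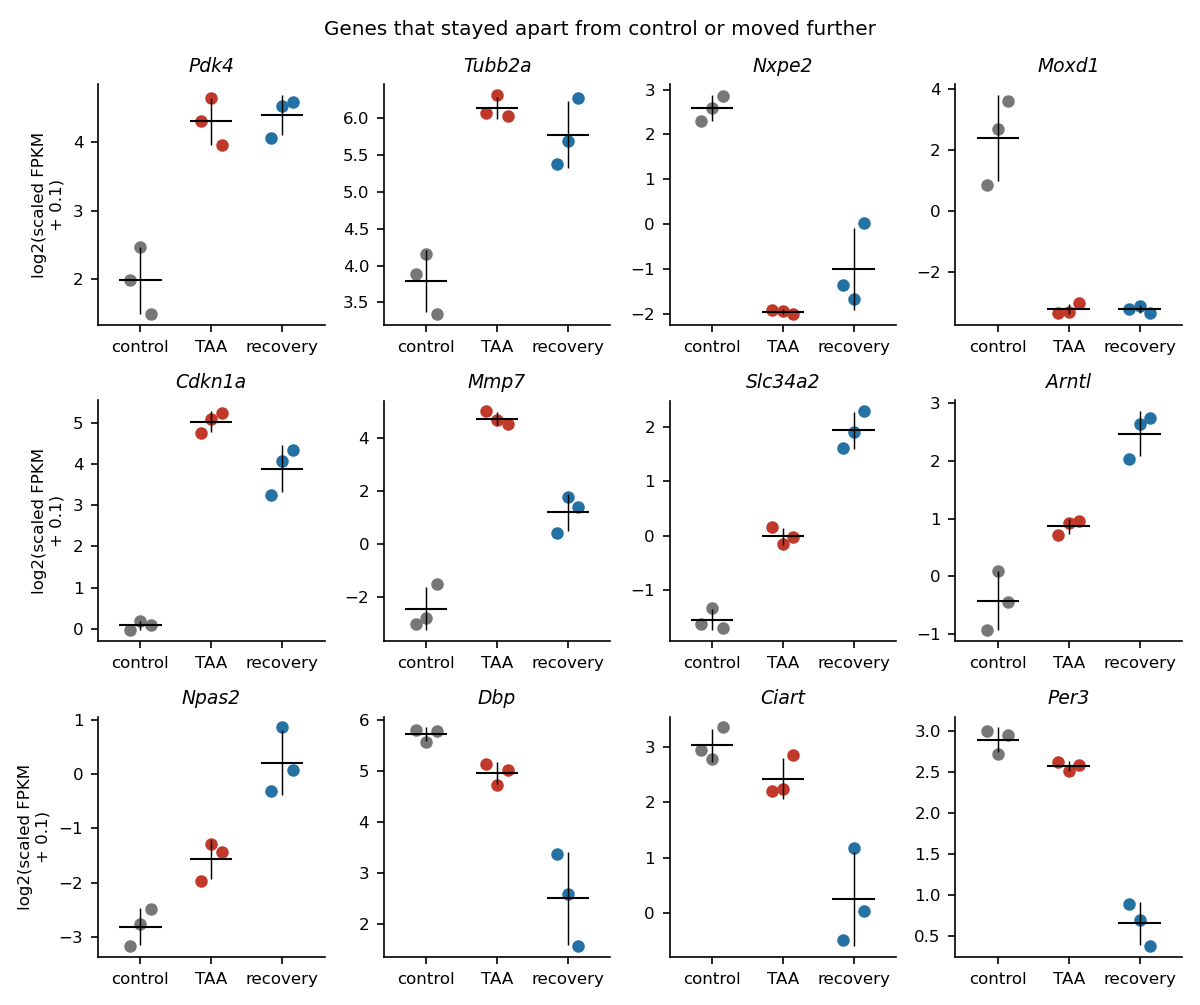
Level of 12 genes in each of the 9 mice as log2 of scaled FPKM plus 0.1 (y axis, scaled to each gene), by group; bars are the mean and vertical lines the SD of 3 mice. Pdk4, Tubb2a, Nxpe2 and Moxd1 in recovery mice lie with or close to TAA mice, Cdkn1a and Mmp7 lie between TAA and control, and Slc34a2, Arntl, Npas2, Dbp, Ciart and Per3 in recovery mice lie beyond TAA mice as seen from control.

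A further 34 genes moved away from both groups, called in the same direction against TAA and against control, 20 of them upward. They were counted among genes with a mean of at least 1 scaled FPKM in the higher of the recovery and control groups. Slc34a2, a phosphate transporter, rose from 0.227, 0.299 and 0.21 in control mice and 1.01, 0.8003 and 0.885 in TAA mice to 2.96, 3.65 and 4.75 in recovery mice (log2 fold change 1.94, SE 0.19, adjusted p = 0.000156, limma against TAA). The next 5 by distance from control were clock genes or their outputs. Arntl, the clock activator BMAL1, was at 3.98, 6.11 and 6.64 in recovery mice, 1.54, 1.79 and 1.85 in TAA mice and 0.424, 0.971 and 0.635 in control mice, and Npas2, its partner, at 0.703, 1.71 and 0.96 in recovery, 0.154, 0.309 and 0.269 in TAA and 0.0104, 0.0465 and 0.077 in control mice. Dbp, an output factor of the clock, ran the other way, at 10.3, 5.92 and 2.85 in recovery, 35.2, 26.3 and 32.4 in TAA and 55.6, 47.1 and 55.4 in control mice, and Ciart and Usp2 were lower as well (-2.19 and -1.64 against TAA). Of 22 clock genes 4 were higher and 4 lower than in TAA mice, and 2 were higher and 7 lower than in control mice. Per3 fell by 1.92 against TAA, Nr1d1 (0.72), Per1 (0.61) and Per2 (-0.55) were not called. These genes cycle within a day, and recovery, age and hour of collection cannot be told apart for them. The same limit holds for any other gene above whose level varies with the hour, including those past control or still apart from it.

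Set in order by the part of the TAA difference left in recovery mice, on the log2 scale and over all tested members, the programmes included at the low end 5.93% for oncofetal genes, 6.62% for female-predominant genes, 7.22% for complement and coagulation and 8.34% for fatty acid oxidation, in the middle 10.4% for neutrophils, 12.8% for male-predominant genes, 15.5% for collagens, 23.9% for mitosis and 30.4% for matrix proteases, and at the high end 43.6% for the TGF-beta list, 55.6% for MHC class II and 63.8% for interferon-stimulated genes. The last of these started from a small TAA difference of 0.54 log2 units, as did the lymphocyte list (0.52), so that their shares are imprecise, while mitosis started from 3.19. The share for matrix proteases includes Mmp11, at 3.97 log2 units against control, for which no control level can be set. The low shares were not precise either: in the 3 recovery mice -4.48, 5.38 and 16.9% was left for oncofetal genes, 0.494, 6.08 and 13.3% for female-predominant genes and -3.36, 13.1 and 21.5% for neutrophils. Members on opposite sides of control cancel in such a mean, so a low share does not show that each member returned. Against control, oncofetal members ran from -1.60 to 1.95 log2 units and female-predominant members from -1.16 to 2.47. Cholesterol synthesis, complex I, lipogenesis, periportal genes, DNA replication and drug-metabolizing P450 genes were past control, on the other side from TAA. The excess was 0.195 log2 units for complex I, 0.148 for periportal genes and 0.073 for drug-metabolizing P450 genes. Scaling on ribosomal protein genes gave all genes a shift of -0.19 between recovery and control mice, so the side of these lists depends on scaling. Lipogenesis was at -0.02, -0.10 and -0.19 in recovery mice, beside a control SD of 0.07, so recovery mouse 1 lay within that spread. Recovery mouse 1 was the lowest of the recovery mice in the collagen, elastic fibre, matrix protease, myofibroblast, macrophage and MHC class II lists, and the highest in the interferon-stimulated list. The SD of the 3 recovery mice was 0.55 log2 units for lymphocyte genes and 0.02 for fatty acid oxidation.

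**Figure D5:**
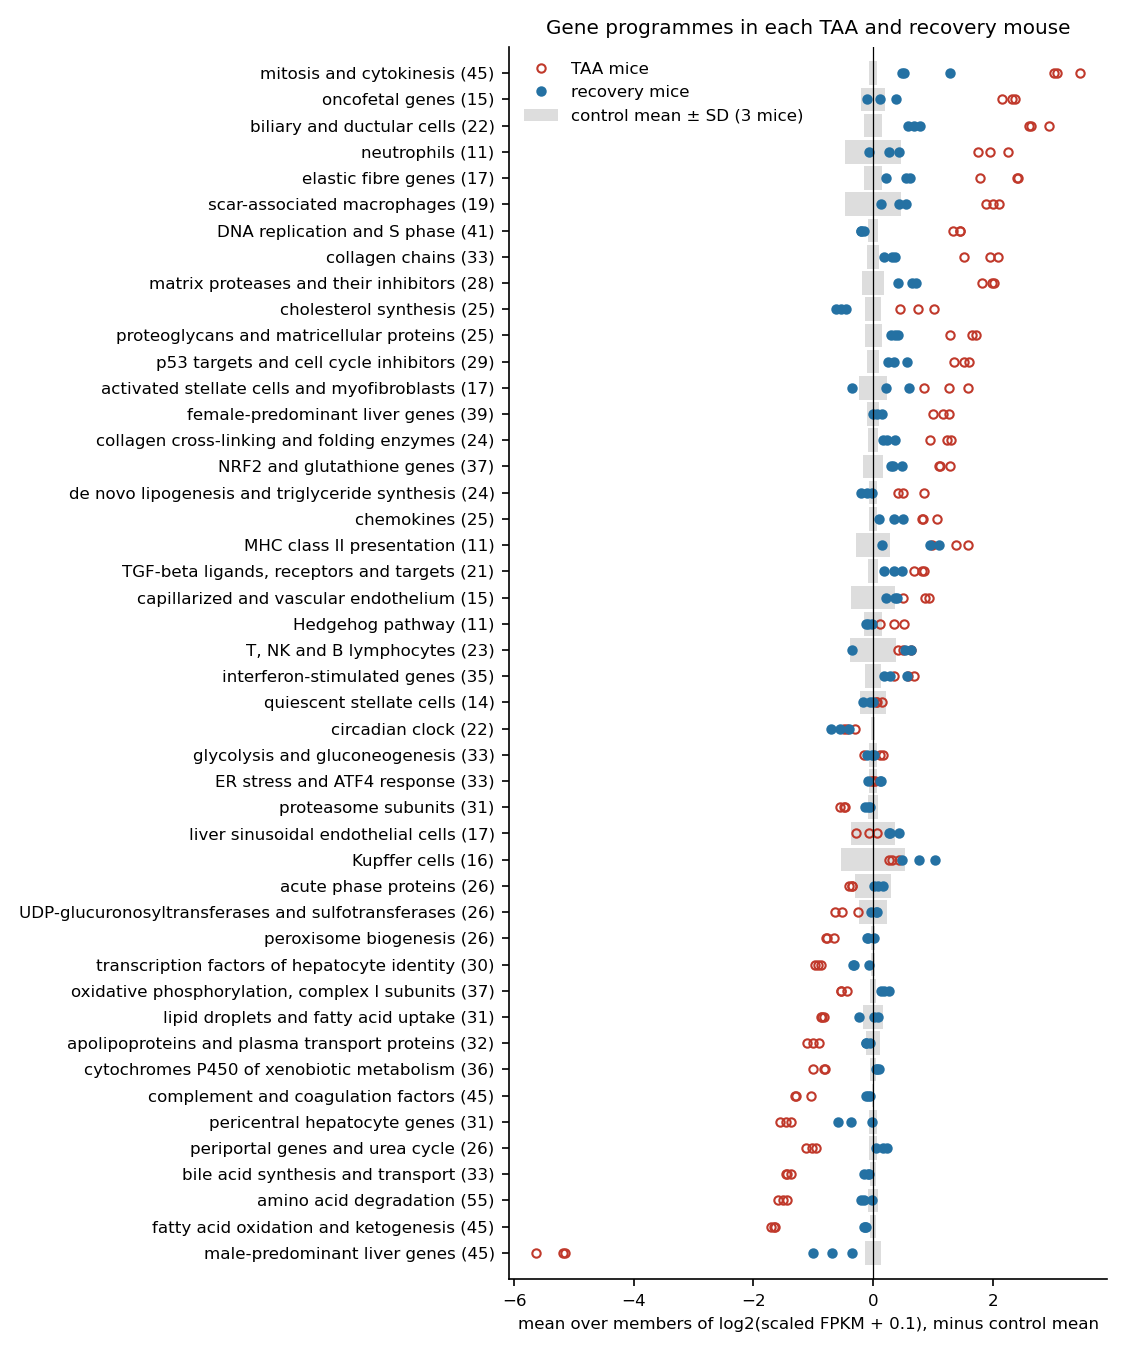
Mean over the tested members of each list (number in brackets) of log2 scaled FPKM plus 0.1, minus the control mean, for each TAA mouse (open red) and recovery mouse (filled blue); grey bars are the control mean ± SD of 3 mice. TAA and recovery mice are widely apart for mitosis at the top and for male-predominant genes at the bottom, where TAA mice are at -5.63 to -5.16, and they overlap for MHC class II, lymphocyte, interferon-stimulated, clock and ER stress genes, among others.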

How the data were processed

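Total liver RNA of 9 mice (3 per group) was sequenced. Per the labels and the study's methods, the authors aligned reads to mm10 (GRCm38) with HISAT2 2.2.1, counted them per gene with featureCounts 1.5.0-p3 and deposited FPKM; strandedness is not given in the sources used here. Because 48.1% to 58.6% of low values were whole multiples of 1 read (tolerance 0.05), counts were not recovered and no count test was run. In the symbol column, 27 symbols had turned to dates.

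Libraries were scaled by median of ratios, using the 14005 genes above 0 in all 9 libraries, and tested as log2(scaled FPKM + 0.1) with limma 3.58.1 in R 4.3.3 (lmFit, eBayes with a variance trend), 6 libraries per comparison and Benjamini-Hochberg adjustment over 14094 genes. Fold changes are on this scale, which understates those of low genes. The script was tested on simulated data. Tables were made in Python 3.11.15 (numpy 2.4.6, pandas 2.3.3).

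Genes were named by rule: the 10 largest rises and 10 largest falls among calls without overlap, with a mean of at least 1 scaled FPKM in the higher group; set members of each list and its largest called rise and fall; the 10 least resolved; the 6 that moved furthest from control; and the 6 most abundant that returned fully. Others, namely the uncalled mitotic genes, list members still different from control, Insig2 and the genes whose promoters are shown, were chosen after their values were seen. The members and lists were chosen with earlier results of these data known. Some genes are counted in several lists. Spp1 is in the biliary, matricellular and scar-associated macrophage lists, and Hhip in the quiescent stellate and Hedgehog lists. Identity between copies was computed on GENCODE M21 transcripts in place of proteins, which were not used here. Some genes are not reported here. Alternatives were another scaling, pseudocount, filter, variance model, fold test and replicate block, and leaving out each mouse.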

Additional observations from a re-analysis of the deposited data

How the results depend on the processing

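Between recovery and TAA mice, 1895 genes were called with a mean FPKM of at least 1, 1460 with a pseudocount of 1 and 1084 when limma tested for more than a fold change of 2 (treat), beside 3017; leaving out each mouse gave 2910 to 3135. Between TAA and control mice these settings gave 2204, 1780 and 1441, beside 3520, and leaving out each mouse 3412 to 3579. Between recovery and control mice, 140 became 235 with all 9 libraries in one fit, 48 with no filter on low values, 85 with no variance trend, 80 with a pseudocount of 1, and 32 to 106 without each mouse; treat called 0, with 88 at an unadjusted p under 0.05. Scaling on ribosomal protein genes gave 196 there, of which 29.6% were higher against 58.6%. Quantile normalization turned the log2 fold change of 7 named genes, of which all but Cyp2a5 were called higher in recovery than TAA mice (1.01 to 1.24): Vtn -0.28, Orm1 -0.10, Cyp2a5 -1.07, Cat -0.12, Fabp1 -0.031, Apob -0.23 and Serpinc1 -0.10. Of 36 lists with a median of at least 0.5 in size, 1 changed sign over 13 settings, and of 51 lists of any median 11 did, among them Kupffer cells (0.48 to -0.07 without scaling) and, with quantile normalization, lymphocytes (-0.48 to 0.24) and interferon-stimulated genes (-0.27 to 0.10). Among these settings, no filter on low values could not change a list, since only members that passed the main filter were used. A pseudocount of 1 made several medians smaller in size. It gave -1.33 for mitosis, -0.74 for collagen chains and -0.62 for matrix proteases, beside -2.61, -1.54 and -1.38. Mice of different groups share only a number: same-number correlations were -0.07 to 0.12, and with the replicate block the counts were 3026, 3517 and, between recovery and control, 17. The causes were not tested. Depth sets the precision of genes near the pseudocount, and groups of 3 mice limit every comparison.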
